A study of Mus musculus with 8 samples.

Results

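The ends of the topologically associating domains (TADs) of mouse lens fiber cells were examined for CTCF binding. All 2641 TADs that Arrowhead, a caller of square domains on Hi-C maps, listed in lens fibers were used. They are part of the 8041 TADs listed for 3 cell types. Their 5279 distinct end positions were the points of interest. Each end was given a window that reached 10 kb to either side, and the window was called bound when it held the summit of a fiber CTCF peak. Windows of the same size were placed at the 2640 distinct TAD centres and at 5251 distinct points 100 kb beyond an end, on the outer side of the TAD. Ends within 10 kb of an anchor of a fiber chromatin loop were also marked.

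Lens fibers and lens epithelium were dissected from newborn CD-1 mice at postnatal day 0.5 and compared with cultured v6.5 mouse embryonic stem (ES) cells of wild-type genotype. Fiber Hi-C, which counts ligated pairs of neighbouring DNA fragments after 2.0% formaldehyde fixation, was made as 2 replicates of 30 lenses each, and both were merged before TADs and loops were called. Fiber CTCF ChIP-seq, on material pooled from 200 lenses, is 1 sample with 1 peak list by the labels, whereas the study's methods speak of biological replicates, and whether the list joins them is not given in the sources used here. No group carried a treatment or a mutation. Each result below therefore rests on 1 TAD list, 1 loop list and 1 CTCF list, and no spread between replicates can be given. The 95% intervals cover counting error only, neighbouring windows are not independent, and no test across samples was possible. The depth of the sequencing is not given in these lists, and a dissected tissue cannot be checked against marker expression in them.

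CTCF is a zinc-finger protein that binds DNA in a fixed orientation. Cohesin, a ring-shaped complex, is thought to extrude DNA as a growing loop until it meets CTCF whose motif faces the loop. Such stops hold many TAD ends and loop anchors, and the TAD in turn favours contacts between the enhancers and promoters inside it. In the lens, fiber cells leave the cell cycle, fill with crystallins and finally lose their nuclei.

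Sequences that carry the direction of CTCF at fiber TAD ends could be read only in promoter windows, which span 250 bases before to 50 bases after a gene start in RefSeq (GRCm38.p6, the same chromosome coordinates as the mm10 build of the peaks). The motif searched, on both strands, was CCA, any 2 bases, AG, any 2 bases and GGC. It was found in 2.43% of all 32851 promoter windows (95% interval 2.27 to 2.60), in 18.5% of the 1069 windows with a fiber CTCF summit (16.3 to 21.0), and in 22.0% of the 177 such windows whose middle lay within 10 kb of a TAD end (16.6 to 28.7). No TAD joined by a loop had a readable motif at both ends. The 6 below were therefore the motifs with the highest peak enrichment at distinct TAD ends among those whose flanks lay in the promoter window, with a chromosome that is not printed here left out, a choice made after their values were seen. Each is printed in the direction of the motif, with the motif in capitals and the promoter window named by its gene.
Gm36358: gctatccttCCACCAGGGGGCagcaaagag
Gm32898: cgtgtgtgaCCACTAGGGGGCggagtgtat
Gm17197: atctctcaaCCACCAGGGGGCgccaaagta
Cbl: ctctcttctCCAGCAGAGGGCgcaggcact
Sycp2: aaccgcctgCCAGCAGGGGGCgctgtgccg
Gm33756: tacagttaaCCACCAGGGGGCagcatgtaa

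The first sequence, at chr1:65112192-65112221 on the plus strand, lay under the strongest of these peaks, with 16.8-fold enrichment over background. Its summit was 7.24 kb inside the start of a 75 kb TAD beside Cryga, a gamma-crystallin gene. The second, at chr10:94623763-94623792 on the plus strand, lay under a 14.3-fold peak with its summit 3.75 kb inside the start of a 340 kb TAD. The epithelium and ES cell lists also held an end within 10 kb of this start. The third, at chr19:56356607-56356636 on the plus strand, had a 13.6-fold peak with its summit 8.37 kb outside the start of a 435 kb TAD. The fourth, at chr9:44234236-44234265 on the minus strand in the window of Cbl, which encodes an E3 ubiquitin ligase, had an 11.6-fold peak. Its summit was 5.73 kb outside the start of a 105 kb TAD. The fifth, at chr2:178407734-178407763 on the plus strand in the window of Sycp2, which encodes a protein of the meiotic synaptonemal complex, had an 11.0-fold peak. Its summit was 7.26 kb outside the start of a 1470 kb TAD, and the ES cell list held an end within 10 kb of this start. The sixth, at chr19:59389385-59389414 on the plus strand, had a 10.5-fold peak at the start of a 950 kb TAD. All of these ends were TAD starts, the end with the lower coordinate, so a motif on the plus strand points into the TAD. The motif of Cbl was the exception and pointed out of its TAD.

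Over all readable places, 29 motifs lay within 50 bp of a fiber summit at a TAD end, at 29 distinct ends. Of these, 26 pointed into the TAD and 3 pointed out, which is 89.7% into the TAD (73.6 to 96.4). At TAD starts 15 were on the plus strand and 2 on the minus strand. At TAD stops the strands were turned, with 1 on the plus strand and 11 on the minus strand. Into the TAD pointed 18 of 20 motifs at ends with a loop anchor and 8 of 9 at ends without one, where the interval reached from 56.5% to 98.0%. These 29 places are a small and promoter-bound part of the bound ends. A looser motif, with 1 more free base, gave 75% into the TAD (62.3 to 84.5).

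With this window and the full fiber list, most fiber TAD ends were bound by CTCF. A summit lay within 10 kb of 3165 of 5279 ends, which is 60.0% (58.6 to 61.3). At TAD centres 315 of 2640 windows were bound (11.9%, 10.8 to 13.2), and 100 kb outside 1314 of 5251 were bound (25.0%, 23.9 to 26.2). Over the 20 chromosomes 1 to 19 and X cut into 131578 tiles of 20 kb, the background was 15.3% of tiles. Bound windows were thus 5.02 times as frequent at ends as at centres (4.52 to 5.59) and 2.40 times as frequent as 100 kb outside (2.28 to 2.52). The centres lay below the background, at 0.781 of the tile share (0.704 to 0.867), and the outside points above it, at 1.64 times (1.56 to 1.72).

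**Figure D1:**
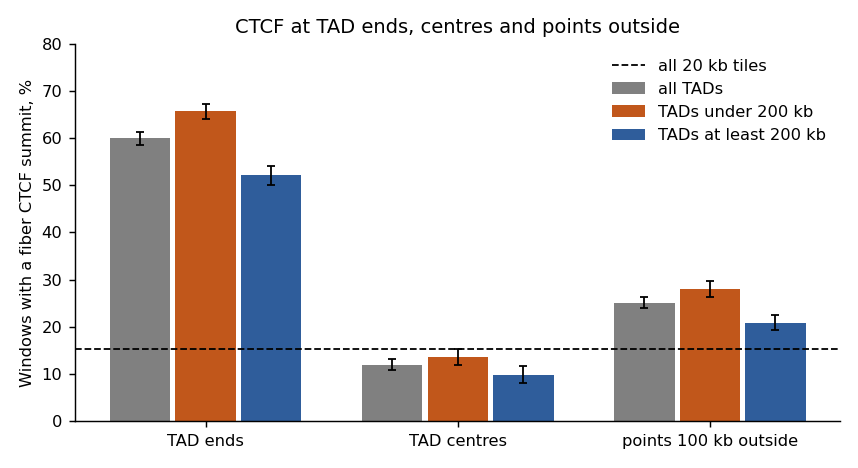
Share of windows (%) that held a fiber CTCF summit at TAD ends, TAD centres and points 100 kb outside, for all TADs and for TADs under and of at least 200 kb. Bars are shares, error bars are 95% Wilson intervals and the dashed line is the share of all 20 kb tiles (15.3%); the ends stand above both other kinds of window in each size class.

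The number of summits in a window followed the same order. Of the ends, 2114 had no summit, 2163 had 1, 820 had 2, 163 had 3, 16 had 4 and 3 had 5. The mean was 0.828 summits per end window, 0.129 per centre window, 0.302 per outside window and 0.181 per tile. At least 2 summits were found at 19% of ends and at 0.833% of centres. The nearest summit was at a median of 7.22 kb from an end (quartiles 2.89 and 16.9 kb), against 41.9 kb from a centre and 25.7 kb from an outside point. A group of 141 ends had no summit within 100 kb. Starts and stops of TADs were bound in near equal shares, at 58.6% (56.7 to 60.5) and 61.3% (59.4 to 63.1).

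The outside points were a mixed control. Of them, 15.7% lay within 20 kb of another TAD end, where 49.6% were bound (46.2 to 53.0), and 34.4% fell into a neighbouring TAD. Away from any end by over 20 kb, 22.7% were bound where no TAD held the point (21.3 to 24.3) and 15.4% where a TAD did (13.6 to 17.4). Among all tiles over 20 kb from an end, 11.6% of those inside a TAD were bound (11.3 to 12.0) and 12.6% of those in no TAD (12.4 to 12.8). The bound share inside TADs thus differed far more from that of the neighbourhood of TADs than from that of all other tiles. The tiles also cover long stretches without CTCF peaks, which lower their share. Of all 131578 tiles, 43363 lay over 100 kb from a fiber summit, against 480 of 2640 centres.

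Around the ends, the summits were densest in the first 5 kb inside the TAD, with 24.5 summits per 100 ends, where a mean stretch of 5 kb on the chromosomes had 4.52. The first 10 kb on either side were close, with 21.7 summits per 100 ends and 5 kb inside (20.8 to 22.6) and 19.7 outside (18.9 to 20.6). Farther away the sides parted. From 20 to 50 kb the density was 5.19 inside (4.93 to 5.45) and 9.88 outside (9.54 to 10.2). From 100 to 200 kb it was 2.74 inside, which only TADs long enough could give (2.58 to 2.90), and 7.36 outside (7.20 to 7.52). For TADs of at least 200 kb alone, the like comparison, the outside density was 5.80 (5.58 to 6.03). In TADs of at least 200 kb the first 10 kb inside held more summits than the first 10 kb outside, at 19.9 (18.6 to 21.2) against 14.9 (13.8 to 16.1), and in smaller TADs both sides were alike, at 23.0 (21.8 to 24.2) and 23.3 (22.1 to 24.5).

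**Figure D2:**
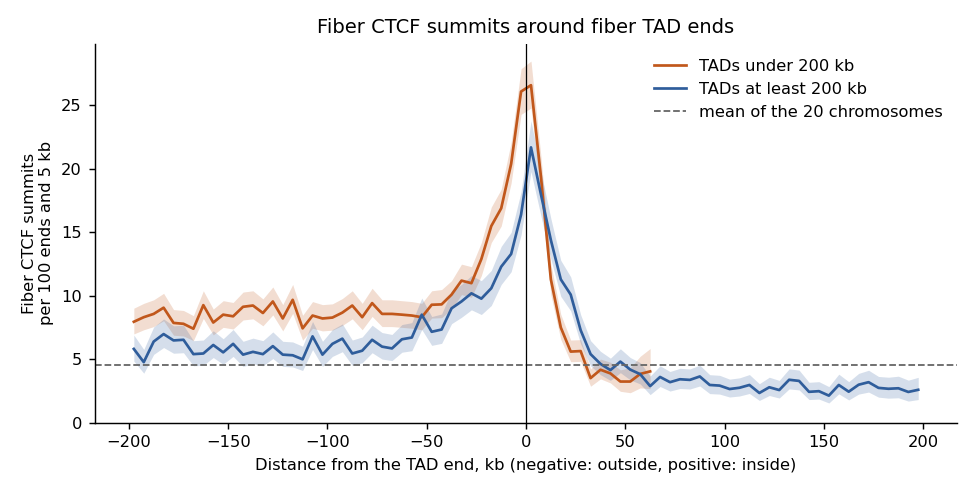
Fiber CTCF summits per 100 TAD ends and 5 kb (y axis) against the distance from the end in kb (x axis, negative outside and positive inside the TAD, counted inside only as far as the TAD's middle). Lines are TADs under 200 kb and of at least 200 kb, bands are exact Poisson 95% intervals and the dashed line is the mean of the 20 chromosomes (4.52); each peak stands at the end and falls lower inside than outside.

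With the 10 kb window, small TADs had the more often bound ends. The TAD sizes fell into separate classes, with 1532 TADs under 200 kb (median 105 kb), 1109 of at least 200 kb (median 455 kb) and only 3 from 200 to 300 kb. Ends were bound in 65.7% of cases in the smaller class (64.0 to 67.3) and in 52.1% in the larger (50 to 54.1), a ratio of 1.26 (1.20 to 1.32). Centres went the same way, with 13.5% (11.9 to 15.3) and 9.75% (8.14 to 11.6), and so did the outside points, with 28.0% (26.4 to 29.6) and 20.8% (19.2 to 22.5). From 10 to 30 kb inside the end the order was turned, with 7.51 summits per 100 ends and 5 kb (7.03 to 8.01) and 10.8 (10.1 to 11.5). From 10 to 30 kb outside it was kept, with 14.1 (13.4 to 14.8) and 10.7 (10.0 to 11.4). The ratio of ends to centres did not differ beyond its interval, at 4.86 (4.27 to 5.53) and 5.34 (4.45 to 6.42). Across finer sizes the share was highest in TADs from 60 to under 80 kb, at 72.3% (66.9 to 77.1), and lowest in those of 600 kb and above, at 47.3% (43.5 to 51.1). The fall was not steady, with 61.9% from 100 to under 120 kb (58.6 to 65.2) and 70.9% from 150 to under 250 kb (64.7 to 76.4). Inside TADs of at least 200 kb, the first and the last of 10 equal parts of the length held 25.4% and 21.5% of the summits, and no part between them held more than 7.97%.

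On all 20 chromosomes the ends were bound more often than the centres and than the outside points, and on all 20 the centres less often than the outside points. The intervals of centres and outside points overlapped on chromosomes 3, 8, 10, 11, 15, 16, 17 and X. On the 19 autosomes the ends ranged from 90 of 180 on chromosome 18, or 50%, to 68.5% on chromosome 11, with a median of 59.8%. The centres ranged from 7.76% to 20.7%, and the outside points from 19.9% to 30.1%. The intervals of ends did not overlap those of centres, nor those of the outside points, on 19 of 20 chromosomes. The remaining one was X, where 12 TADs were listed and 11 of 24 ends were bound (45.8%, 27.9 to 64.9). The only TAD on Y had no summit at either end.

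**Figure D3:**
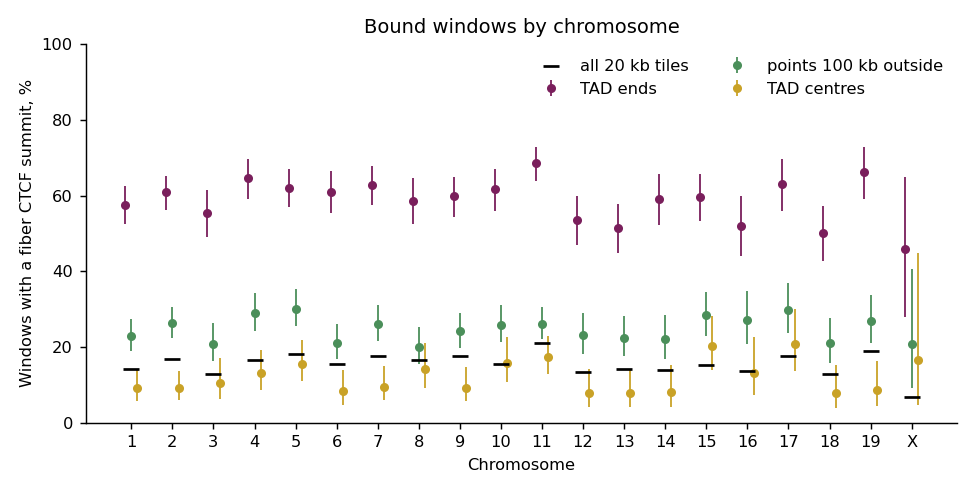
Share of windows (%) with a fiber CTCF summit on each of 20 chromosomes (x axis) at TAD ends, points 100 kb outside and TAD centres. Points are shares with 95% Wilson intervals and black dashes are all 20 kb tiles of the chromosome; the ends are uppermost on each chromosome, from 45.8% on X to 68.5% on chromosome 11.

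Most fiber TAD ends coincided with a loop anchor. Loops are pairs of loci, the anchors, with more contacts than their surroundings, and they were called by HiCCUPS on the same fiber map as the TADs, so that this overlap is not independent of the calling. Of the ends, 3644 lay within 10 kb of an anchor of one of 7682 fiber loops (69.0%, 67.8 to 70.3), against 7.69% of centres (6.73 to 8.77), 23.4% of outside points (22.3 to 24.6) and a background of 17.3% of tiles. With the anchor's midpoint in place of its nearer edge, the share was 53.4%. The loops led mainly into the TAD. At TAD starts with an anchor, 74.0% had only loops reaching into the TAD, 6.03% only loops reaching away and 20% both, and at TAD stops these shares were 79.7%, 4.42% and 15.9%.

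CTCF and loop anchors went together at the ends, as they did at the other windows. Ends at an anchor were bound in 69.7% of cases (68.2 to 71.1) and other ends in 38.3% (36.0 to 40.7), a ratio of 1.82 (1.71 to 1.94). Of tiles without an anchor, 9.59% were bound (9.42 to 9.77), so that ends without an anchor stood above them as well. Of tiles at an anchor, 42.4% were bound (41.7 to 43.0), a ratio of 4.42 (4.31 to 4.52). In absolute counts, 2539 ends had both, 1105 an anchor alone, 626 CTCF alone and 1009 neither. At centres the corresponding shares were 28.1% at an anchor (22.3 to 34.6) and 10.6% elsewhere (9.43 to 11.9), a ratio of 2.65 (2.07 to 3.40). At outside points they were 47.4% (44.6 to 50.2) and 18.2% (17.0 to 19.4), a ratio of 2.61 (2.39 to 2.85). The ratio was lowest at the ends, where the bound share without an anchor was highest. A high share without an anchor limits how large the ratio can be. The ratios therefore do not rank how closely CTCF and anchors went together. The bound share was higher where more loops met the end, from 63.1% with 1 loop (61.0 to 65.3) to 74.3% with 2 (71.6 to 76.7), 81.6% with 3 (77.6 to 85.0) and 40 of 42 ends with 5 or more. Ends with loops in both directions were bound in 81.6% of cases at starts and 83.4% at stops, above the 65.0% and 68.8% of ends whose loops only entered the TAD.

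Seen by TAD, 1003 of 2641 had a summit at both ends (38.0%, 36.1 to 39.8), 1161 at 1 end (44.0%) and 477 at none (18.1%). The product of the shares of bound starts and bound stops was 35.9%, just below the interval of the share with both. A single fiber loop joined the ends of 1182 TADs. In these, both ends were bound in 52.5% (49.7 to 55.4) and neither in 7.95% (6.54 to 9.63). In the 418 TADs with no end at an anchor, both were bound in 23.0% (19.2 to 27.2) and neither in 35.2% (30.7 to 39.9). The ratio of the shares with both ends bound was 2.29 (1.90 to 2.75). The joining loop did not have more contacts where CTCF was listed at both ends. Its median observed count was 52 with both ends bound (quartiles 32 and 72), 61 with 1 (43 and 87.5) and 57.5 with none (42 and 119.25), in raw counts that also vary with loop length and anchor width.

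**Figure D4:**
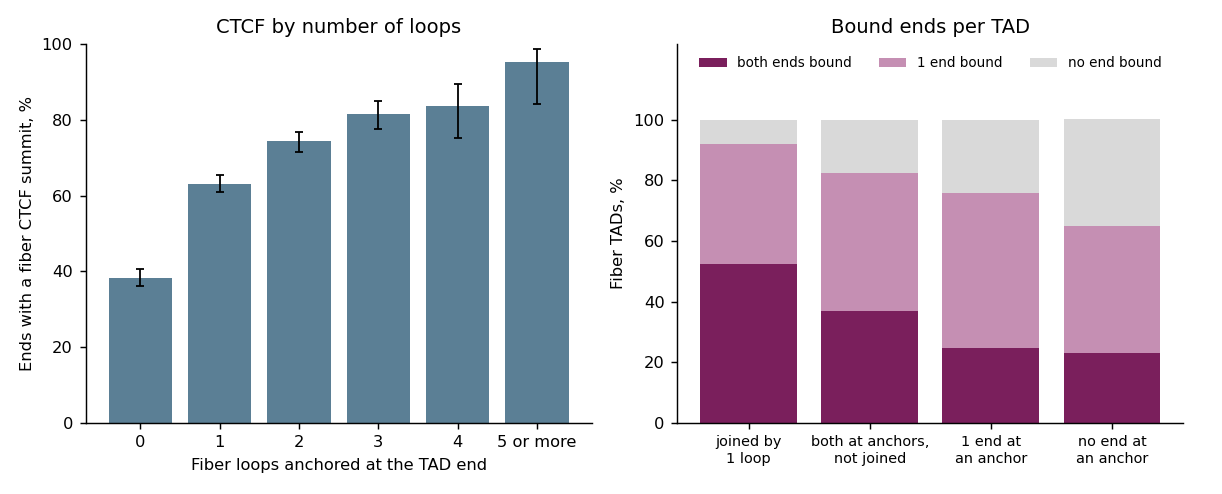
Left, share of TAD ends with a fiber CTCF summit (%, bars with 95% Wilson intervals) by the number of fiber loops anchored within 10 kb of the end, from 38.3% with no loop to 95.2% with 5 or more. Right, fiber TADs (%) with both, 1 or no end bound, by whether 1 loop joined the ends, both were at anchors of other loops, 1 was at an anchor or none was; both ends were bound in 52.5% of joined TADs and 23.0% of TADs with no end at an anchor.

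From the side of the peaks, 4179 of the 23774 fiber CTCF peaks on the 20 chromosomes had their summit within 10 kb of a TAD end (17.6%), in 3.91% of the length. TADs cover 28.8% of the length, a figure that includes the inner parts of the end windows. Another 5360 peaks lay deeper inside TADs, beyond these windows (22.5%, so not on the same base), and 14235 outside (59.9%). Most CTCF peaks of lens fibers were therefore not at a listed TAD end. The peaks at ends were the stronger ones, with a median enrichment of 7.0-fold over background (quartiles 5.63 and 8.96), against 6.27-fold inside TADs (5.16 and 7.89) and 6.39-fold outside (5.22 and 8.18). With the peaks ranked by enrichment and cut into 10 equal classes, 12.7% of the weakest class were at ends (11.4 to 14.1), and 23.5% of the strongest (21.9 to 25.3). Inside TADs the order was turned, from 24.0% (22.3 to 25.8) to 18.9% (17.4 to 20.5).

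The epithelium CTCF list gave a lower level and the same contrast at fiber TAD ends. Epithelium summits were found at 41.5% of the ends (40.2 to 42.8), 8.56% of the centres (7.55 to 9.69) and 17.4% of the outside points (16.4 to 18.4), beside 11.0% of tiles. Ends with a summit of both lists numbered 2052 (38.9%), ends with a fiber summit alone 1113 (21.1%) and ends with an epithelium summit alone 138 (2.61%). The epithelium list is shorter, and cell type and the depth of its 1 sample cannot be told apart. Fiber peaks that overlapped an epithelium peak were at ends in 18.9% of cases (18.2 to 19.6), and the others in 16.2% (15.6 to 16.9).

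Ends that other cell types shared were bound more often. Within 10 kb of a TAD end of both the epithelium and the ES cell list lay 1444 fiber ends, of which 73.6% were bound in fibers (71.3 to 75.8) and 81.5% at a fiber loop anchor (79.4 to 83.4). The 1637 ends in the fiber list alone were bound in 43.8% (41.4 to 46.2) and at an anchor in 54.5% (52.1 to 56.9). Ends shared with ES cells and not epithelium were bound in 68.7% (65.9 to 71.4), above the 57.4% of ends shared with epithelium and not ES cells (54.5 to 60.3). The ES cell list is longer, with 3604 TADs against 1796 in epithelium, and TAD size was not matched between these groups. Sharing, list length and TAD size can therefore not be told apart here. The epithelium summits kept this order, from 54.8% of ends in all 3 lists (52.3 to 57.4) to 29.0% of ends in the fiber list alone (26.8 to 31.2).

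**Figure D5:**
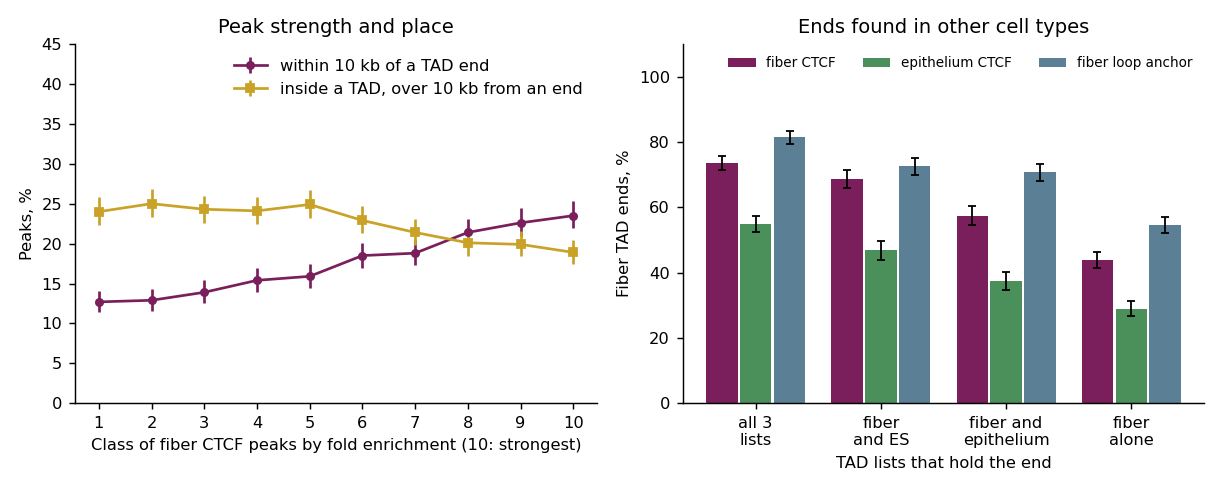
Left, fiber CTCF peaks (%) within 10 kb of a TAD end or deeper inside a TAD, by 10 equal classes of fold enrichment from 1 (weakest) to 10 (strongest), the first going from 12.7% to 23.5%. Right, fiber TAD ends (%) with a fiber CTCF summit, an epithelium CTCF summit or a fiber loop anchor, by the TAD lists that hold the end; each falls from ends in all 3 lists to ends in the fiber list alone. Points and bars are shares with 95% Wilson intervals.

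Genes started near TAD ends more often than elsewhere. A protein-coding gene start lay in 25.8% of end windows (24.6 to 27.0), 15.5% of centre windows (14.1 to 16.9), 21.7% of outside windows (20.6 to 22.8) and 12.0% of tiles. Ends without a gene start were bound in 58.6% of cases (57.0 to 60.1) and ends with one in 63.9% (61.3 to 66.4). At centres the shares were 10.2% (9.03 to 11.5) without and 21.3% (17.6 to 25.6) with a start. Summits within 500 bp of a protein-coding gene start made up 4.79% of the peaks at ends (4.18 to 5.48) and 6.06% of those outside TADs (5.68 to 6.46). Genes of ribosomal proteins, the parts of the ribosome, started within 10 kb of a fiber TAD end in 20 of 61 cases (32.8%, 22.3 to 45.3), and olfactory and vomeronasal receptor genes, which sense odours and pheromones, in 9 of 1267 (0.710%, 0.374 to 1.34), beside 8.76% of all 17274 protein-coding genes with a listed start.

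The 4 groups of genes were looked up by name. The body of 27 of 85 genes lay within 10 kb of a fiber TAD end, and the background was 19.6% of 21631 protein-coding genes. Long genes reach more ends, and by their starts alone the background was 8.76%. The 33 ends near these genes were bound in 21 cases and at a loop anchor in 21 cases, beside 60.0% and 69.0% of all fiber TAD ends.

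Of the 16 crystallin genes, which encode the main soluble proteins of the lens, 3 lay near an end (18.8%, and 2 of 15 by start, 13.3%), and 2 of these ends were bound. Beside Cryga the TAD at chr1:65105001-65180000 started 1.64 kb from the gene, with 2 fiber summits, 1 epithelium summit and a loop that joined its ends, and neither other TAD list held this start. Its strongest summit, at 65112237, is the one whose motif is printed first above. Beside Crybb3, a beta-crystallin gene, the 70 kb TAD at chr5:113090001-113160000 started 7.76 kb away, with 2 summits of up to 12.1-fold in fibers, 2 in epithelium and a joining loop. The TAD start 8.61 kb from Cryba1 had no summit of either list and no anchor, although all 3 TAD lists held it.

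Of 20 lens transcription factor genes, 8 lay near an end (40.0%, and 4 of 16 by start, 25.0%), and 7 of their 9 ends were bound, beside 60.0% of all ends. Maf, an activator of crystallin genes, held within its body the start of a 745 kb TAD at chr8:115705001-116450000, with 1 summit of 7.40-fold, 4 loops and a joining loop. Sox2, a partner of Pax6 in lens induction, was 9.99 kb from the stop of a 400 kb TAD. This stop had 3 summits and 3 loops, and all 3 TAD lists held an end within 10 kb of it. Sox1, needed for fiber elongation, was 0.519 kb from the stop of a 435 kb TAD with 1 weaker summit of 5.39-fold, no epithelium summit and 3 loops. Pitx3, a homeobox gene needed for lens formation, was 0.281 kb from a bound end that a loop joined to the other end of its 120 kb TAD. The end beside Meis1, which encodes a homeodomain cofactor, had 1 summit of 3.92-fold and 5 loops. Casz1, a zinc-finger gene, held both ends of a 100 kb TAD, each with 2 fiber summits. Some ends were unbound here. Prox1, which drives fiber elongation, held the start of a 650 kb TAD with no summit and no anchor, found in no other list. The stop 3.81 kb from Six3, a homeobox gene of lens and forebrain, had no summit but 3 loops and a joining loop.

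Of 25 genes for the membrane, the cytoskeleton and organelle loss of fibers, 9 lay near an end (36.0%, and 3 of 22 by start, 13.6%), with 7 of 13 ends bound, beside 60.0% of all ends. Bfsp1, a beaded filament gene, held the start of a 110 kb TAD with 1 fiber summit of 8.15-fold, no epithelium summit and a joining loop, absent from the other TAD lists. Bfsp2, which encodes its partner, held a TAD start with 1 summit of 5.18-fold and a TAD stop with an epithelium summit alone, neither at an anchor. Both ends of a 95 kb TAD lay in Efna5, which encodes an ephrin of fiber cell contacts, with summits of 13.8-fold and 10.4-fold and no loop anchor. Ank2, which encodes an ankyrin of the membrane skeleton, held both ends of a 120 kb TAD joined by a loop, and only its start was bound, at 10.6-fold. A single summit marked the ends beside Aqp5, an aquaporin gene, at 8.90-fold and Slc2a1, a glucose transporter gene, at 4.91-fold. Sptbn1, a spectrin gene, held 2 TAD starts without a summit or an anchor. The end near Vim, the vimentin gene, had no summit but did lie at a loop anchor.

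Of 24 developmental genes known for nearby TAD borders, 7 lay near an end (29.2%, and 2 of 12 by start, 16.7%), with 5 of 8 ends bound, beside 60.0% of all ends. Their inclusion rests on what is known of them elsewhere. Sox9 was 2.21 kb from the start of a 380 kb TAD with 1 summit of 9.27-fold, 3 loops and a joining loop. All 3 lists held an end within 10 kb of this start. Shh, the hedgehog signal, was 6.84 kb from the start of an 870 kb TAD at chr5:28450001-29320000. This start had 1 summit of 9.59-fold, and the stop of the same TAD, inside Lmbr1, the gene that holds the distant limb enhancer of Shh, had none. Beyond Lmbr1, 6.58 kb away, the next TAD started with 1 summit of 7.29-fold. The TAD stop 8.22 kb from Hoxd13, at the edge of its Hox cluster, had 2 fiber summits, no epithelium summit and 4 loops. The end inside Pitx1, a hindlimb homeobox gene, had 1 summit of 7.87-fold and a joining loop. The stop beside Six3 at 85630000 and the start beside Six2, a kidney progenitor gene, at 85660000 faced each other on chromosome 17. Neither had a summit of either list within 10 kb. The windows of these ends do not meet, so CTCF in the stretch between the windows was not counted. The end near Hoxc13 also had no summit within its window.

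The 5 ends with most summits were all at loop anchors and all in the epithelium TAD list. Of all fiber TAD ends, 69.0% lay at an anchor and 48.4% within 10 kb of an end of that list. With 5 ends, some of them picked by name order among ties, no more can be read from this. On chromosome 10 the stop of a 635 kb TAD at Msrb3, a methionine sulfoxide reductase gene, had 5 fiber and 4 epithelium summits, with 4.12-fold to 8.30-fold enrichment. On chromosome 18 the start of a 135 kb TAD at Ctif, which encodes a translation initiation factor, had 5 and 3, up to 14.3-fold, with 4 loops. On chromosome 9 the start of a 350 kb TAD at Fxyd2, which encodes a regulator of the sodium pump, had 5 and 4, up to 6.53-fold. The ends with 4 summits numbered 16, and the first of these by alphabetical order of chromosome names were at Tbx2, a T-box gene of eye and limb on chromosome 11, and at a place on chromosome 12 with no protein-coding gene within 10 kb.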

How the data were processed

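Per the labels, lens fibers were dissected from newborn CD-1 lenses. The authors aligned reads with BWA, merged both Hi-C replicates with Juicer, called loops with HiCCUPS (juicer_tools 2.13.06) and TADs with Arrowhead, and called CTCF peaks with MACS2, on mm10 by the submitters' processing notes. The deposited loop list gives observed contacts as raw counts. The deposited peak list gives the fold enrichment at the summit as a ratio to background and the −log10 of a q-value. TAD ends lie on a grid of 5 kb, which limits their precision.

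Windows were counted in Python 3.11.15 with pandas 2.3.3 over numpy 2.4.6, using scipy 1.17.1 for quantiles, and plots used matplotlib 3.10.9. The 95% intervals are Wilson intervals of shares, Katz intervals of ratios and exact Poisson intervals of densities. The functions were tested on simulated data. The 94 fiber peaks off the 20 chromosomes entered no tile. Gene bodies and promoter windows came from RefSeq (GRCm38.p6). Named genes were all members of 4 lists within 10 kb of an end, and the 5 ends with most summits. A gene that this rule names is not reported here. The members and lists were chosen with earlier results of these data known. Alternatives changed the window, peak strength, TAD size, control points, anchor rule and motif. Sequences on chromosome 18 were not printed.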

Additional observations from a re-analysis of the deposited data

How the results depend on the processing

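No paired analysis was possible because both Hi-C replicates were merged before TADs and loops were called and CTCF was 1 peak list, so that no replicate could be left out either. Of 64 alternatives none turned a ratio to the other side of 1 or the motif share to the other side of 50%, and 31 stayed within the interval of the reported value. The other shares were not judged in this way, so their alternatives could not count as turned. The share of bound ends did fall below 50% with 5 kb windows, the stronger 50% of peaks, the epithelium list and peaks of both lens lists. The level depended on the window. With 5 kb and 20 kb in place of 10 kb, 39.5% and 78.7% of ends were bound, 17.5% and 63.5% of TADs had both ends bound, and the ratios were 7.04 and 3.46 to centres and 2.97 and 1.88 to outside points. The stronger 50% of peaks gave 42.4% of ends, 19.3% of TADs, ratios of 7.99 and 3.02, and 2.13 for ends at anchors. TADs of at least 200 kb gave 52.1% of ends, 29.1% of TADs, 64.4% at anchors and 2.07 for ends at anchors, and TADs under 200 kb 65.7%, 44.4%, 72.4% and 1.63. The epithelium list gave 41.5% and 18.5%. Outside points over 20 kb from any end, 50 kb outside and 200 kb outside gave ratios of 2.93, 2.18 and 2.58. The share of ends at anchors was 53.4% by midpoints, 54.4% with anchors of 5 and 10 kb and 59.9% with a gap of at most 5 kb. Chosen after seeing the data, peaks of both lens lists gave 37.4%, 6.85 and 2.78, and 57.3% of ends were bound without summits within 500 bp of a gene start. The unknown depth of the single CTCF list limits what an unbound end means, since weaker sites may not have been called.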
